A study of Diuraphis noxia with 6 samples.

Results

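Of 90781 transcripts assembled from whole Russian wheat aphids, *Diuraphis noxia*, 53 (0.0584%) were counted only in the libraries of biotype RWA-SA1. The transcripts were chosen by their values in both biotypes. A transcript was taken when its expected count, the number of reads that RSEM assigned to it, was 10 or more in every RWA-SA1 library and 0 in every RWA-SAM library. These 53 transcripts belong to 44 gene identifiers of the assembly. None of the 44 gene identifiers was without counts in RWA-SAM, since other transcripts of each were counted in all of its libraries.

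The series compared RWA-SAM and RWA-SA1, a pair of South African biotypes linked by descent, with 3 libraries each. A library came from 100 whole aphids of different developmental stages, pooled and prepared with a kit for stranded mRNA, and both biotypes were kept on the hosts they prefer. No sex, age, tissue or treatment was separated within a pool, and no source used here names separate colonies for the replicates of a biotype, so the spread between replicates is that between pools. In whole pooled aphids, fewer cells that use a transcript and less of it per cell cannot be told apart.

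A biotype is a population that looks like others of its species but differs in which host plants it can overcome. A gene of an aphid, as of other animals, can give rise to several transcripts by alternative splicing and by the use of different start and end sites, and the proteins or untranslated ends they encode may differ. A de novo assembler also reports separate transcripts for alleles and for sequence variants, so the transcripts that share a gene identifier can be isoforms, alleles or fragments of a locus. RSEM divides a read that matches several of them by maximum likelihood, and the values of transcripts of the same gene identifier are therefore linked. Whole aphids carry the bacterial endosymbiont *Buchnera aphidicola*, to which the paper traces some transcripts of the assembly, and the tables do not mark which. The deposited tables pair the identifiers with no gene names or sequences, and the transcripts are described here by their length in bases, with identifiers for a few of them.

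The expected counts summed to 32294116 to 40181963 in the RWA-SAM libraries and to 36714790 to 47619238 in the RWA-SA1 libraries. Transcripts at 1 TPM (RSEM's level per length and library total) or more numbered 35221 to 37027 in RWA-SAM, against 33522, 27564 and 27505 in RWA-SA1 replicates 1, 2 and 3. RWA-SA1 replicate 1 stood apart from the others of its biotype. Its gene level log2 CPM (counts scaled to the library total) correlated at 0.991 to 0.994 with the RWA-SAM libraries and at 0.987 and 0.988 with RWA-SA1 replicates 2 and 3, across 13532 gene identifiers, which are not independent. Whether its pool was mixed or its label exchanged was not tested, and every RWA-SA1 mean given here includes it. The number of transcripts, their medians, the order of the libraries and the calls are given below also without it.

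The count of the transcripts depends on how many could have qualified. In RWA-SA1, 29155 transcripts had 10 or more in every library, and the 53 were 0.182% of them. The mirrored rule, which asked for 10 or more in each RWA-SAM library but 0 in all RWA-SA1 libraries, found 39 of 30148 transcripts (0.129%), in 35 gene identifiers. Transcripts of both kinds stood in 2 gene identifiers, which is 4.55% of the 44 and 5.71% of the 35. The 35 are a small part of the 14963 gene identifiers summed to 10 or more in every RWA-SAM library, so 2 is not read as few. Summed over each gene identifier, the same limits found none of 14126 gene identifiers counted only in RWA-SA1, and none of 14963 counted only in RWA-SAM.

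Because the counts in both biotypes chose the transcripts, the difference between the biotypes in these values is a description. Just inside the limit of 10, a transcript of 1527 bases had 0, 0 and 0 in RWA-SAM, against 10.01, 39.67 and 58.6 in RWA-SA1, and one of 1962 bases had 10.02, 261.47 and 32.88 in RWA-SA1. The lowest value of both was that of RWA-SA1 replicate 1. Just outside it, a transcript of 7085 bases had 49.5, 9.75 and 116.75 in RWA-SA1 and one of 863 bases had 9.38, 18.08 and 14.7, all with 0 in RWA-SAM. On the other side, a transcript of 1950 bases missed the rule through an expected count of 0.01 in RWA-SAM replicate 1, with 38.62, 37.82 and 56.24 in RWA-SA1.

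Most of the 53 transcripts were scarce where they were counted. Their mean in RWA-SA1 had a median of 1.05 TPM and ran from 0.277 to 10.2 TPM, against a median of 4.17 TPM for all transcripts with 10 or more in every RWA-SA1 library. The mean was 1 TPM or more for 28 of them and under 1 TPM for 25, and 13 reached 1 TPM in every RWA-SA1 library. In expected counts their means had a median of 71.0 and ran from 13.6 to 1233, with 18 at 100 or more and 20 under 50. Together the 53 transcripts gave 0 TPM in each RWA-SAM library, against 60.6, 92.8 and 83.3 TPM in RWA-SA1 replicates 1, 2 and 3 (mean 78.9 ± 16.5, SD, n = 3). RWA-SA1 replicate 1 was the lowest in this sum.

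The most abundant of them was TRINITY_DN289_c0_g3_i8, of 4427 bases. Its expected counts were 0, 0 and 0 in RWA-SAM, against 376.24, 1644.72 and 1676.94 in RWA-SA1 replicates 1, 2 and 3, which is 0 TPM against 3.71, 14.0 and 12.9 TPM. RWA-SA1 replicate 1 held far less than the other replicates, yet all RWA-SA1 libraries lay far above the RWA-SAM libraries. This transcript alone made up 20.3% of the mean counts of the 53. With a floor of 3 counts over the RWA-SAM libraries together, its CPM pooled over the RWA-SA1 libraries was 1045-fold that floor. The rule itself asked for 0 in RWA-SAM and a minimum count in RWA-SA1. The floor covers counting error only, since reads multiplied by PCR are not independent molecules. RSEM can also assign 0 to a transcript whose reads match others of its gene identifier, so this ratio is not a lower bound.

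The second was a transcript of 3455 bases, at 0 in RWA-SAM and at 161.96, 586.26 and 738.41 counts in RWA-SA1, or 5.29 ± 2.82 TPM (SD, n = 3). Its CPM pooled over the RWA-SA1 libraries was 420-fold the floor of 3 counts in RWA-SAM. Again RWA-SA1 replicate 1 was low within its biotype. The third by TPM, of 1003 bases, had 43.42, 49.69 and 161.61 counts in RWA-SA1, where replicate 3 was high, and averaged 3.52 ± 2.35 TPM. The next 5 were of 2151 bases (3.29 ± 1.32 TPM), 3209 bases (3.22 ± 1.89 TPM), 1715 bases (2.72 ± 2.22 TPM), 4950 bases (2.71 ± 0.793 TPM) and 1957 bases (2.56 ± 1.73 TPM), all means of 3 RWA-SA1 libraries with their SD and all with 0 TPM in RWA-SAM. Over the 53 transcripts this ratio to the floor ran from 11.5 to 1045, with a median of 60.2, and it follows the depth of each transcript in RWA-SA1.

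**Figure D1:**
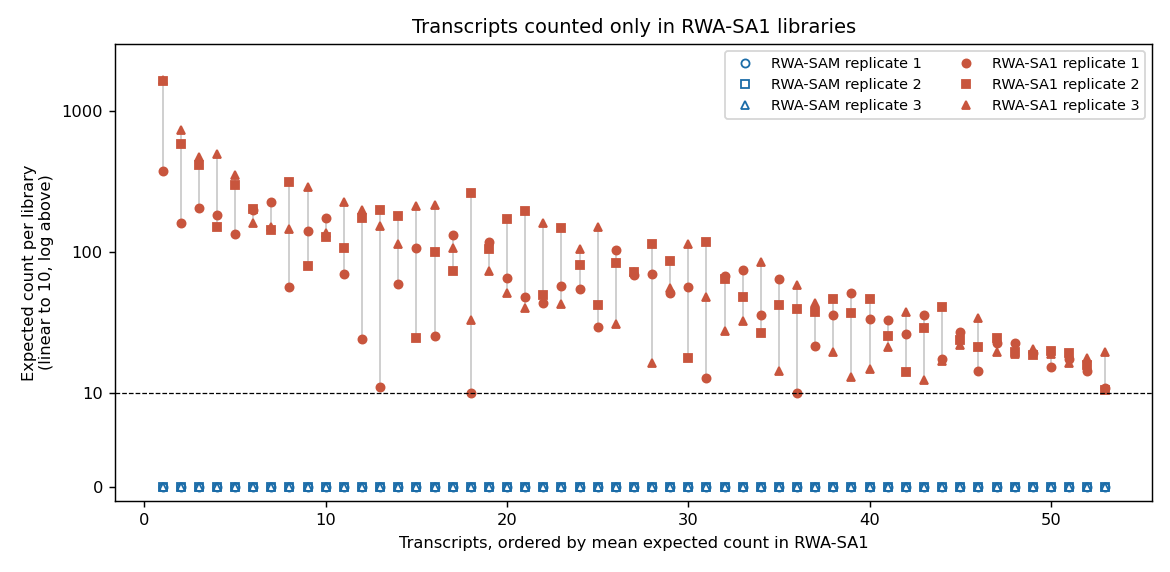
Expected counts (vertical axis, linear to 10 and logarithmic above) of the 53 transcripts in each library, ordered along the horizontal axis by their mean in RWA-SA1. Open blue symbols are RWA-SAM replicates, all at 0, filled red symbols are RWA-SA1 replicates, grey lines span the RWA-SA1 range and the dashed line is the limit of 10. The means in RWA-SA1 ran from 1233 down to 13.6, and 24 transcripts spanned more than 3-fold between replicates in CPM.

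The RWA-SA1 replicates were not close to each other for many of these transcripts. The ratio of the highest to the lowest CPM in RWA-SA1 had a median of 2.89, ran from 1.07 to 22.0, and was over 3 for 24 of the 53. The narrowest range belonged to a transcript of 1115 bases with 14.23, 15.81 and 17.68 counts in RWA-SA1. The widest belonged to the transcript of 1962 bases given above, and a transcript of 1715 bases had 11.02, 199.59 and 152.73 counts. RWA-SA1 replicate 1 had the highest CPM for 19 and the lowest for 17 of the 53, replicate 2 the highest for 15 and the lowest for 11, and replicate 3 the highest for 19 and the lowest for 25. Among the 20 transcripts of highest mean count, the lowest share of the gene's TPM stood in replicate 1 for 12, in replicate 2 for 4 and in replicate 3 for 4. Among the other 33 it stood in replicate 1 for 8, in replicate 2 for 9 and in replicate 3 for 16, and replicate 1 had the highest share for 14.

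Within their gene identifiers most of the 53 were minor transcripts in RWA-SA1 too. IsoPct, the share of a transcript in the summed TPM of its gene identifier as RSEM gives it, had a median over the 53 of 0% in each RWA-SAM library, against 4.38%, 6.35% and 5.19% in RWA-SA1 replicates 1, 2 and 3. The mean share in RWA-SA1 had a median of 5.24% and ran from 0.13% to 61.6%. For transcripts with 10 or more in every RWA-SA1 library whose gene identifier had other transcripts, that median was 16.3%. The share was under 10% for 39 of the 53 and 25% or more for 9. By TPM in RWA-SA1, 3 of the 53 ranked first within their gene identifier, 10 ranked second and 40 below that. All transcripts of the 44 gene identifiers together gave 2398 ± 23.4 TPM in RWA-SAM and 2836 ± 139 TPM in RWA-SA1 (SD, n = 3 each), of which the 53 made up 0% in RWA-SAM and 2.19%, 3.10% and 3.04% in RWA-SA1.

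**Figure D2:**
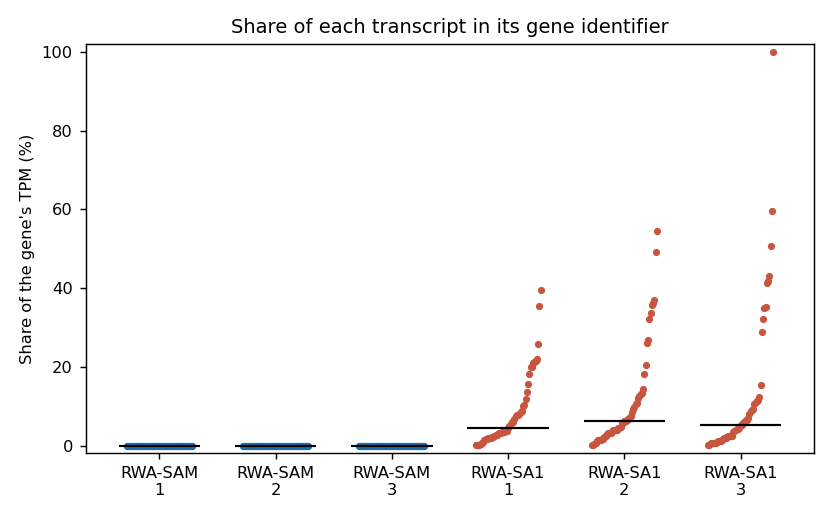
Share of the gene identifier's TPM (vertical axis, percent) taken by each of the 53 transcripts in every library (horizontal axis), sorted within a library, with the median as a black line. All points are at 0% in the RWA-SAM libraries, and the medians are 4.38%, 6.35% and 5.19% in RWA-SA1 replicates 1, 2 and 3.

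The 53 transcripts were not short fragments. Their median length was 2577 bases, with quartiles of 1741 and 4051 and a range from 458 to 8308. The 29155 transcripts with 10 or more in every RWA-SA1 library had a median of 2015 bases, those of them with other transcripts in the gene identifier 2187, and the whole assembly 527. The 39 transcripts of the mirrored rule had a median of 2240 bases. A minimum count favours longer transcripts, which collect more reads at the same level, so the whole assembly is not a like set.

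Of the 53, 50 were longer than 1000 bases and 10 longer than 5000. The 3 longest had 8308, 7285 and 7221 bases, and their counts in RWA-SA1 were 56.86, 312.69 and 145.47 for the first, 141.81, 79.48 and 289.81 for the second and 56.36, 17.55 and 114.3 for the third. The 3 shortest had 458, 575 and 741 bases. The shortest was even between replicates, with 22.65, 19.36 and 18.82 counts in RWA-SA1, and was the ninth by TPM at 2.56 ± 0.665 (SD, n = 3). All of these were at 0 in RWA-SAM.

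The gene identifiers of the 53 were rich in transcripts. They held 441 transcripts in all, and the median over the 53 was 9 transcripts per gene identifier (range 2 to 42), against 4 for the transcripts with 10 or more in every RWA-SA1 library and 5 for those of them with other transcripts. The 39 transcripts of the mirrored rule had a median of 8. Of the 29155 transcripts 6157 were the sole transcript of their gene identifier, and none of the 53 was. In gene identifiers with 2 to 4 transcripts, 9 of 10464 transcripts with 10 or more in every RWA-SA1 library were counted only there (0.0860%). The number was 18 of 7696 (0.234%) for 5 to 9 transcripts, 22 of 4078 (0.539%) for 10 to 19, and 4 of 760 (0.526%) for 20 or more. The share was thus several times higher with 10 or more transcripts than with 2 to 4.

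**Figure D3:**
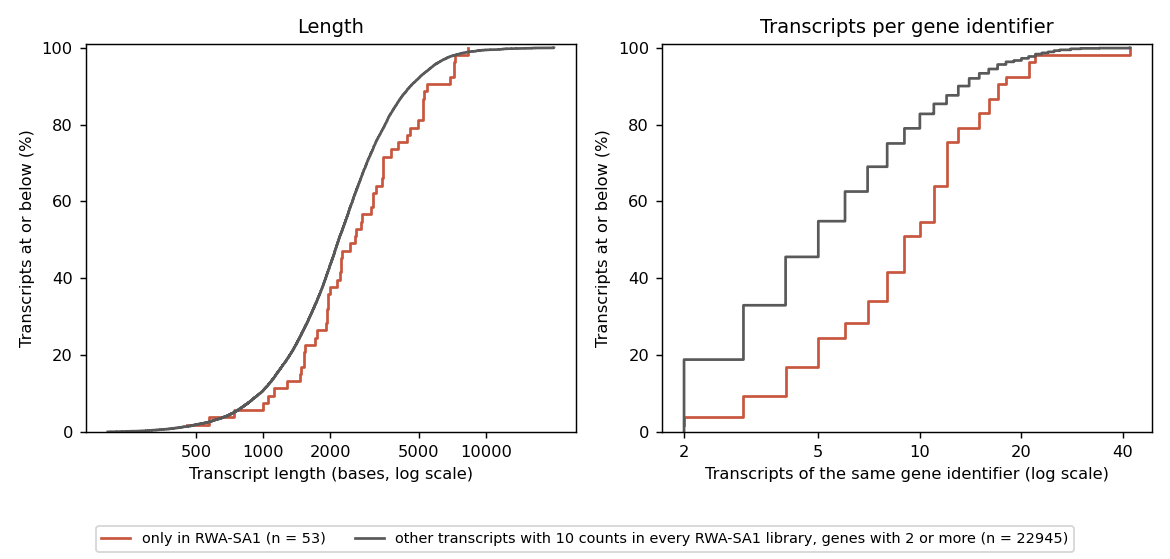
Cumulative share (vertical axes, percent) of transcript length in bases (left, log scale) and of the number of transcripts of the same gene identifier (right, log scale). Red is the 53 transcripts counted only in RWA-SA1 and grey the other transcripts with 10 counts in every RWA-SA1 library from gene identifiers with 2 or more transcripts. The red curve lies to the right for the number of transcripts, with a median of 9, and less so for length, with a median of 2577 bases.

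Many of the 53 had a close neighbour in length within their gene identifier. The smallest difference to any other transcript of the same gene identifier had a median of 41 bases and a maximum of 445, with 8 transcripts within 10 bases of another and 12 over 100 bases apart from any. With the 53 themselves left out as neighbours, that median was 51 bases. Of the 53, 7 were the longest of their gene identifier. Neither this number nor the differences in length were compared with other transcripts of equally rich gene identifiers, so neither is read as a trait of the 53. A transcript of 5221 bases, for example, stood beside transcripts of 5222 and 5223 bases. It had 0 counts in each RWA-SAM library, against 174.87, 128.18 and 136.17 in RWA-SA1. The transcript of 5222 bases had 196.08, 215.28 and 157.5 counts in RWA-SAM and 170.23, 31.27 and 48.4 in RWA-SA1, where replicate 1 lay within the RWA-SAM range and the others below it.

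The gene identifiers of all 53 transcripts were expressed in RWA-SAM through their other transcripts. With the 53 left out, the other transcripts summed to 10 counts or more in every RWA-SAM library for all 44 gene identifiers, and to 50 or more for 42. Of the 14126 gene identifiers summed to 10 or more in every RWA-SA1 library, 13532 had this in all 6 libraries. The 44 are thus not read as particular in this. Over these gene identifiers and the RWA-SAM libraries the sums ran from 27 to 34643 counts, and the median of their means in RWA-SAM was 1117. For 51 of the 53, a single other transcript alone had 10 or more in every RWA-SAM library. Of the 388 other transcripts, 245 were above 0 in every RWA-SAM library and 198 in all 6 libraries, and 157 had 10 or more in all 6. In RWA-SAM 21 of the 388 were at 0 in every library, and in RWA-SA1 14 were. These numbers were not computed for other gene identifiers.

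The level of the other transcripts lay near that of RWA-SA1 for most of the gene identifiers. The ratio of their CPM in RWA-SAM over RWA-SA1 ran from 0.558 to 3.03, and 41 of 44 lay between 0.5 and 2. The share of all gene identifiers between these limits was not computed, so the 41 are not read as particular to the 44. The median ratio over the 44 was 1.07, or 0.10 on the log2 scale, while the median over all gene identifiers on that scale was 0.16. For 10 of the 44 every RWA-SAM library was higher than every RWA-SA1 library, for 6 every one was lower, and for 28 the libraries overlapped. Over 13531 gene identifiers with 10 counts in all 6 libraries, 29.0% had every RWA-SAM library higher and 11.8% every one lower. Without RWA-SA1 replicate 1 the numbers were 19 higher, 8 lower and 17 overlapping of the 44, against 54.7% higher and 19.8% lower over all.

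With the 53 transcripts included, the gene total in TPM had a ratio of RWA-SAM over RWA-SA1 from 0.382 to 2.22, with a median of 0.958 and 41 of 44 between 0.5 and 2. Every RWA-SAM library was higher for 4 gene identifiers and lower for 9, and the libraries overlapped for 31. Over 13532 gene identifiers, 28.7% had every RWA-SAM library higher and 11.3% every one lower. The gene total contains the values that chose the transcripts, so nothing is read from the count of 9 or from the 41.

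**Figure D4:**
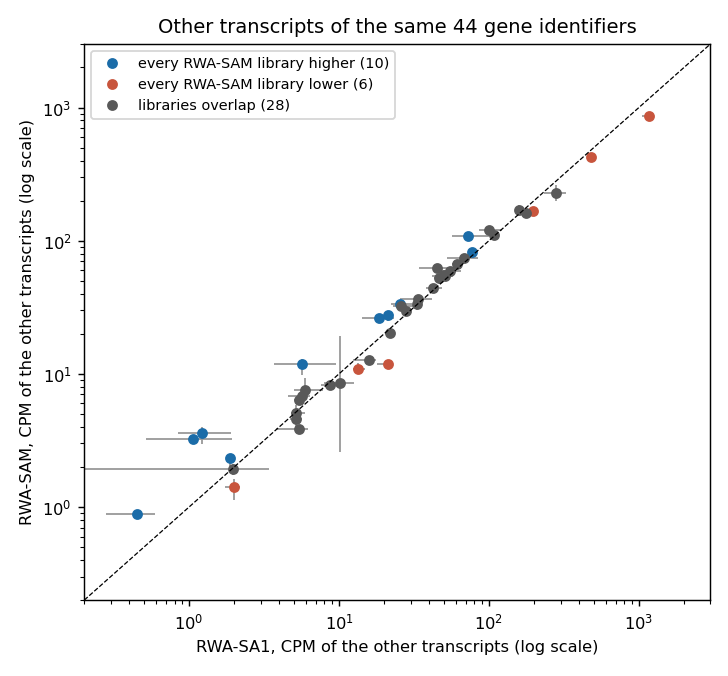
Mean CPM of the other transcripts of the same 44 gene identifiers in RWA-SAM (vertical axis) and RWA-SA1 (horizontal axis), both on log scales, with lines from the lowest to the highest library and a dashed line of equality. Every RWA-SAM library was higher for 10 gene identifiers (blue), every one lower for 6 (red) and the libraries overlapped for 28 (grey). A line that meets the left edge includes a library at 0.

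The sums without the 53 transcripts were also fitted with edgeR's quasi-likelihood test over 16358 gene identifiers, with Benjamini-Hochberg adjustment over all of them. Of the 44 gene identifiers 5 passed an adjusted p of 0.05, with 1 higher in RWA-SAM and 4 lower. Over all gene identifiers 3.93% were called higher and 5.53% lower. Leaving out the 53, which are at 0 in RWA-SAM, lowers only the RWA-SA1 sums of these 44. With the 53 kept, 9 of the 44 were called, 1 higher and 8 lower, against 9.51% of all. The 44 are therefore read neither as near the background nor as apart from it. With the 53 left out, 19 of 44 had an unadjusted p under 0.05, with 7 higher and 12 lower. Over all it was 36.9%, with 18.1% higher and 18.8% lower. The median log2 fold change of RWA-SAM over RWA-SA1 was -0.09 over the 44 and 0.01 over all, after TMM scaling. Without RWA-SA1 replicate 1 the calls rose to 27 of the 44 and to 50.3% of all gene identifiers. No gene identifier was called by edgeR when any other library was left out. An unadjusted p under 0.05 was then reached by 8 to 13 of the 44, against 22.9% to 28.6% of all. The contrast is that of the rule and RSEM links the values within a gene identifier, so this fit is a description.

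The gene identifier called higher in RWA-SAM had 2 transcripts. The other transcript, of 1184 bases, had 138, 96 and 159 counts in RWA-SAM, against 69.81, 41.12 and 39.99 in RWA-SA1, without overlap. The transcript counted only in RWA-SA1, of 1054 bases, had 0 in RWA-SAM, against 15.19, 19.88 and 19.01 in RWA-SA1, and took 19.97%, 35.63% and 35.22% of the gene's TPM there. The edgeR log2 fold change of the other transcript was 1.39 (adjusted p = 0.0402), and 1.73 without RWA-SA1 replicate 1 (adjusted p = 0.000422). With its transcripts summed, this gene identifier had 5.47 ± 0.851 TPM in RWA-SAM and 2.61 ± 0.877 TPM in RWA-SA1 (SD, n = 3 each). The gene identifiers called lower had log2 fold changes of -1.05, -0.64, -0.42 and -0.37, with adjusted p from 0.0315 to 0.0441.

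In some other gene identifiers, given as examples, the total hardly moved. Transcripts counted only in RWA-SA1 had to differ in share, since the rule asked for 0 in RWA-SAM. Other transcripts must take up that share there, so nothing is read from the change in shares. The gene identifier of TRINITY_DN289_c0_g3_i8 had 38.7 ± 2.94 TPM in RWA-SAM and 39.9 ± 1.98 TPM in RWA-SA1 (SD, n = 3 each), with overlapping libraries. It held 9 transcripts, and 2 of them were counted only in RWA-SA1. The second, of 4548 bases, had 0 in each RWA-SAM library, against 134.81, 300.32 and 352.36 in RWA-SA1. The transcript highest by TPM in RWA-SAM was TRINITY_DN289_c0_g3_i5, of 3036 bases, with 15.5, 11.8 and 14.5 TPM in RWA-SAM and 16.2, 7.90 and 10.8 TPM in RWA-SA1, so that RWA-SA1 replicate 1 was above all RWA-SAM libraries and the others below.

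A pair of longer transcripts of this gene identifier ran the other way. The transcript of 6428 bases had 581.83, 719.63 and 725.39 counts in RWA-SAM, against 313.45, 0 and 0 in RWA-SA1. The transcript of 6549 bases had 188.96, 68.73 and 152.63 counts in RWA-SAM, against 71.57, 0 and 0 in RWA-SA1. RWA-SA1 replicate 1 thus held both these transcripts and those counted only in RWA-SA1, while replicates 2 and 3 held none of the longer pair. The longer pair differ from each other by 121 bases, as do the transcripts of 4427 and 4548 bases counted only in RWA-SA1, and the offset between the pairs is 2001 bases.

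The same form was counted over the 44 gene identifiers. Of 197 other transcripts with 10 or more in every RWA-SAM library, 6 (3.05%) had 10 or more in RWA-SA1 replicate 1 and 0 in replicates 2 and 3, 2 (1.02%) had this form for replicate 2 and none for replicate 3. Among all 30148 transcripts of the assembly with 10 or more in every RWA-SAM library the numbers were 147 (0.488%) for replicate 1, 32 (0.106%) for replicate 2 and 38 (0.126%) for replicate 3. These include transcripts of gene identifiers with few transcripts, so the sets are unlike. What sets RWA-SA1 replicate 1 apart was not tested.

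In the gene identifier of the transcript of 3455 bases, the total was 23.6 ± 1.29 TPM in RWA-SAM and 22.6 ± 3.67 TPM in RWA-SA1 (SD, n = 3 each). Its leading transcript, of 4258 bases, took 81.8%, 74.5% and 75.7% of the TPM in RWA-SAM and 63.4%, 59.6% and 44.4% in RWA-SA1, without overlap. The transcript of 3455 bases took 0% in RWA-SAM, against 7.71%, 32.2% and 34.9% in RWA-SA1. That 0% comes from the rule and other transcripts must take up the share, so nothing is read from the order of the leading transcript.

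A gene identifier with 3 transcripts was the lowest in the ratio of gene totals, with 0.567 ± 0.0551 TPM in RWA-SAM and 1.48 ± 0.085 TPM in RWA-SA1 (SD, n = 3 each). Its transcript of 5452 bases had 0 counts in RWA-SAM, against 70.03, 105.97 and 226 in RWA-SA1, and took 35.5%, 49.2% and 100% of the TPM there. A transcript 3 bases shorter had 46.51, 42.76 and 34.44 counts in RWA-SAM and 77.97, 39.05 and 0 in RWA-SA1, so the libraries overlapped. The highest share of any of the 53 thus stood in a library where the transcripts nearest in length were at 0.

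**Figure D5:**
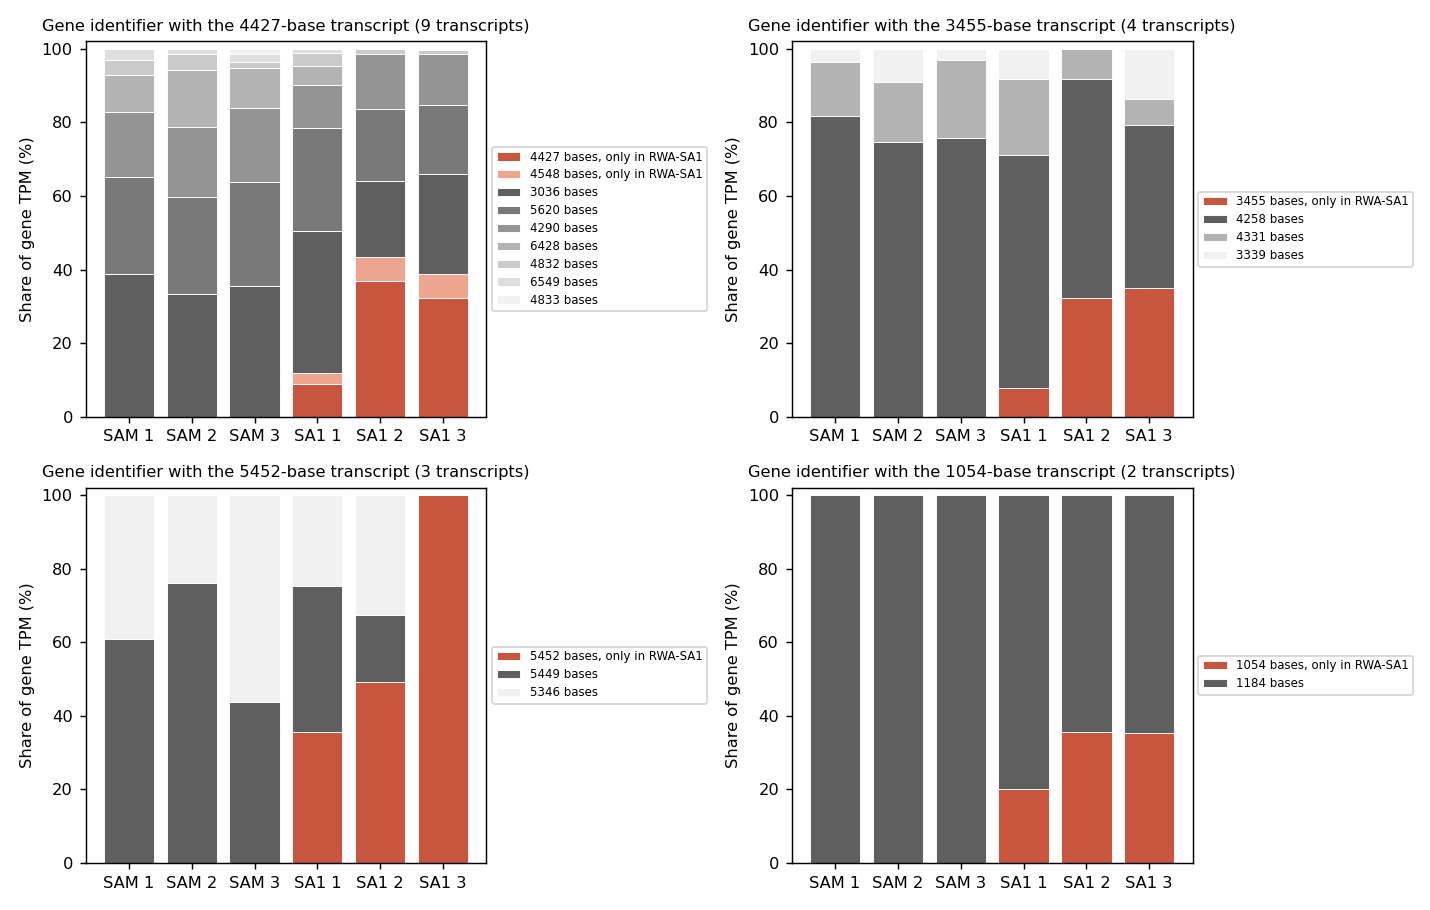
Share of the gene identifier's TPM (vertical axes, percent) by transcript in each library (horizontal axes, RWA-SAM replicates left, RWA-SA1 replicates right) for the gene identifiers of the transcripts of 4427, 3455, 5452 and 1054 bases. Red and light red are transcripts counted only in RWA-SA1 and greys are the other transcripts, named by length. The transcript of 4427 bases took 0% in RWA-SAM, against 8.85%, 36.9% and 32.3% in RWA-SA1 replicates 1, 2 and 3.

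Over the 44 gene identifiers, the transcript of highest mean TPM was the same in both biotypes for 30 and differed for 14. It differed for 15.7% of 7776 gene identifiers with 2 or more transcripts and 10 counts in all 6 libraries, and for 28.5% of those with 10 or more transcripts, where the number was 9 of 20 among the 44. The transcripts that chose the 44 enter this comparison, so nothing is read from these counts. In 3 gene identifiers the leading transcript of RWA-SA1 was one of the 53, of 5452, 1003 and 1115 bases. The transcript whose share was most above that of RWA-SA1 in RWA-SAM gained a median of 12.9 percentage points over the 44, and 20 points or more in 10, with libraries that did not overlap in 33. It was chosen as the largest gain of each gene identifier, and shares that drop to 0 in the 53 must be taken up by others, so nothing is read from that count. By mean TPM the largest rise among the other transcripts was that of TRINITY_DN5136_c1_g1_i10, of 5165 bases, with 13.6, 11.01 and 14.08 TPM in RWA-SAM, against 5.91, 1.27 and 3.67 TPM in RWA-SA1. Its gene identifier had 42.3 ± 2.04 TPM in RWA-SAM and 43.2 ± 1.79 TPM in RWA-SA1 (SD, n = 3 each), with overlapping libraries.

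Both kinds of transcript stood in 2 gene identifiers. In the first, the transcript counted only in RWA-SAM, of 3450 bases, had 68.27, 30.47 and 111.98 counts in RWA-SAM, against 0, 0 and 0 in RWA-SA1. The transcript counted only in RWA-SA1, 8 bases longer, had 0 in RWA-SAM, against 131.5, 72.92 and 107.43 in RWA-SA1. Another transcript of this gene identifier, of 3259 bases, had 284.05, 321.52 and 346.83 counts in RWA-SAM, against 1.42, 0 and 0 in RWA-SA1, and missed the mirrored rule through replicate 1 alone. In the second, the transcript of 1565 bases had 40.73, 25.18 and 36.75 counts in RWA-SAM and 0 in RWA-SA1, and the transcript of 1522 bases had 0 in RWA-SAM, against 19.22, 18.47 and 20.48 in RWA-SA1.

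Of the 44 gene identifiers 9 held 2 of the 53 transcripts and 35 held 1. In each of the 9, the difference in length between these 2 transcripts, of 14 to 374 bases, also separated at least 1 pair among the other transcripts of the gene identifier. Over these gene identifiers, 188 of 517 pairs of other transcripts (36.4%) shared their difference with another pair, which could be that of the 53. They were spread unevenly. The gene identifier with 21 transcripts gave 105 of the 188, from 171 pairs. Those with 7 transcripts and with TRINITY_DN289_c0_g3_i8 gave 1 of 10 and 1 of 21, each the pair that matched the 53. The pooled share is therefore no background for each of the 9.

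A value of 0 in single libraries also occurred between replicates of the same biotype. Of the transcripts with 10 or more in 2 libraries of a biotype, 1.27% to 2.30% were at 0 in the remaining library, over the 6 libraries in turn. Among the other transcripts of the 44 gene identifiers this share was 4.72% to 8.41%. The 44 are rich in transcripts and were chosen for holding a transcript at 0 in RWA-SAM, so the sets are unlike and the excess is not read as particular to them. Of the 388 other transcripts, 90 had 10 or more in an RWA-SAM library and 0 in another of that biotype, and 88 did so in RWA-SA1, spread over 34 gene identifiers. In the gene identifier of the shortest transcript, for example, another transcript of 1643 bases had 494.14, 0 and 45.98 counts in RWA-SAM and 208.49, 217.44 and 388.87 in RWA-SA1.

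Without RWA-SA1 replicate 1, 136 transcripts in 116 gene identifiers met the rule, among them the 53. Their median length was 2252.5 bases, their median level in the remaining RWA-SA1 libraries 0.905 TPM, their median share 5.47% and their median number of transcripts per gene identifier 8.5. Of the 83 further ones, 61 were at 0 in that replicate and 22 lay between 0 and 10, the highest at 9.38. Leaving out RWA-SA1 replicate 2 or 3 gave 75 and 74. Leaving out RWA-SAM replicate 1, 2 or 3 gave 135, 118 and 132, where the further transcripts reached medians of 29.6, 28.5 and 39.6 counts in the library left out. The mirrored rule gave 205 without RWA-SA1 replicate 1, against 39 with it.

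The further transcripts included gene identifiers with no counts at all in RWA-SAM. Of the 136, 126 had other transcripts of the gene identifier summing to 10 or more in every RWA-SAM library, 3 lay between and 7 had none, being the sole transcript of their gene identifier. These 7 were short, with 201 to 252 bases, and had 0 in RWA-SAM, against 0 to 3 counts in RWA-SA1 replicate 1 and 10 to 33 in replicates 2 and 3. The longest of them, of 252 bases, had 0, 14 and 17 counts in RWA-SA1. The mean difference between length and effective length follows the fragments of a library. It was taken over transcripts of 1000 bases or more, so the 7 do not enter it. In it RWA-SA1 replicates 2 and 3 stood at 159 and 153 bases, against 167 to 181 in RWA-SAM and 170 in RWA-SA1 replicate 1. The part of this difference in the short transcripts was not tested.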

How the data were processed

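Whole-aphid RNA of RWA-SAM and RWA-SA1 was sequenced in 3 libraries each, grouped by their labels. The authors trimmed reads with Trimmomatic 0.39, checked them with FastQC and quantified them with RSEM. The aligner and the RSEM version are not given in the sources used here. The deposited expected counts, TPM, FPKM and percent of gene TPM (IsoPct) are per library, without pooling, over 90781 transcripts, and the deposited FPKM were not used. TPM depends on all other transcripts of a library.

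CPM, sums per gene identifier and ranges were computed with Python 3.11.15, pandas 2.3.3 and numpy 2.4.6, and plots with matplotlib 3.10.9. Expected counts were summed per gene identifier without the 53 transcripts, rounded, and fitted in R 4.3.3 with the quasi-likelihood test of edgeR 4.0.16 (TMM, filterByExpr, two-sided, threshold 0.05), which was tested on simulated data. These had the same spread for every gene identifier and no library that stood apart. There 85.4% of 2-fold and 96.8% of 4-fold changes were called, and 0.0577% of unchanged gene identifiers. They do not cover the effect of RWA-SA1 replicate 1 on the calls. Alternatives were DESeq2 1.42.0, RLE scaling, other filters and limits, limma 3.58.1 on log2(TPM + 1) and log2(TPM + 0.1), a block for the replicate number and each library left out in turn. The chi-square per degree of freedom was 21.0 or more for every pair of libraries, so none is a copy of another.

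The transcripts, lists, tests and alternatives were chosen with earlier results of these data known. By rule, identifiers were printed for the transcript of highest TPM in RWA-SA1, for the transcript of highest TPM in RWA-SAM from its gene identifier and for the other transcript of largest rise. The next 7 by TPM, the 3 longest, the 3 shortest and those nearest the limits were given by length. The further examples, and the medians and library orders without RWA-SA1 replicate 1, were chosen after their values were seen. The rule also asked for a transcript whose gene identifier was uncounted in RWA-SAM, and there was none.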

Additional observations from a re-analysis of the deposited data

How the results depend on the processing

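The number of transcripts counted only in RWA-SA1 was 53 and became 71 with a minimum of 5, 32 with 20 and 18 with 50, 64 and 80 with limits under 0.5 and under 3 in RWA-SAM, 46 with counts scaled to the lowest total, 25 with a TPM of 1 or more as the minimum and 0 when summed per gene identifier. Leaving out 1 library gave 74 to 136. Those whose gene identifier was counted in RWA-SAM then numbered 74 to 134, and those whose gene identifier was uncounted 0 to 7, against 53 and 0 with all libraries. Neither of these moved under 5 planned definitions of a counted gene identifier, except that 51 and 52 of the 53 had other transcripts of 50 counts or more and of 1 TPM or more in every RWA-SAM library. With a minimum of 50 the median TPM was 1.72, against 1.05.

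Of the 44 gene identifiers, 5 were called by edgeR on the other transcripts. Over all gene identifiers 9.46% were called. The number was 5 with RLE scaling (9.10% of all) and with 10 counts in 3 libraries (9.02%). It was 12 with DESeq2 (3907 over all gene identifiers, 23.9%) and 2 without a filter (0.954%). With limma it was 0 on either TPM scale (0.502% and 0.132% of all). There 15 of the 44 had an unadjusted p under 0.05, against 25.6% and 25.8% of all. With limma 29 of the 44 fold changes were positive, against 15 with edgeR, where 51.4% of all were positive. The share of all that were positive was not computed for limma, so nothing is read from the 29. The median log2 fold change over all gene identifiers was 0.22 and 0.32 on the limma scales, against 0.01 with edgeR. Over the 44 it was 0.09 and 0.11 with limma, against -0.09 with edgeR, so it lay below that of all with either method. Leaving out 1 library gave 0 to 27, against 0% to 50.3% of all. As alternatives chosen after seeing the data, keeping the 53 transcripts in the sums gave 9 calls (9.51% over all), and leaving out other transcripts within 10 bases changed no class. The cause of these differences was not tested.

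The samples share only replicate numbers: deviations from the biotype means of same-numbered libraries correlated at -0.14, 0.17 and -0.27. With the replicate number as a block in edgeR, 0 of the 44 were called and 0 over all gene identifiers, against 1548 without the block. An unadjusted p under 0.05 was reached with the block by 14 of the 44 and by 32.2% of all. Not every library correlated best with its own number. Depth limits the zeros: 3 counts correspond to 0.0747 to 0.0929 CPM in RWA-SAM.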
